A study of Mus musculus with 3 samples.

Results

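The heparin-binding ligands pleiotrophin (*Ptn*) and midkine (*Mdk*) and the 4 syndecans (*Sdc1*, *Sdc2*, *Sdc3* and *Sdc4*), 6 genes of the 27998 in the count matrices, were followed in the non-cardiomyocytes (non-CMs) of mouse ventricles through pressure overload. The genes were listed by name and chosen by the ratio of *Sdc3* at 2 to 0 weeks, which had been seen to be high in these data, so that ratio is given as a description. All hearts were labelled wild-type, and the study's methods name male C57BL/6J JCL mice for TAC. The reference was a healthy control (0 weeks), whose age was not given in the sources used here, and the others had transverse aortic constriction (TAC), a ligature that narrows the aortic arch, at 8 weeks of age and were taken at 2 weeks (adaptive hypertrophy) and 12 weeks (heart failure). Each phase was 1 droplet library with a 3′ kit, so phase and library cannot be told apart and no test between phases was possible. How many hearts went into each library was not given in the sources used here.

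Cells were placed in classes by the sum of unique molecular identifiers (UMIs, each a counted RNA molecule) of marker genes. After cells with under 200 genes were left out, the classes at 0, 2 and 12 weeks held 1071, 1743 and 294 endothelial cells (ECs), 1221, 96 and 186 fibroblasts (FBs), 318, 57 and 34 mural cells (smooth muscle cells and pericytes), 940, 187 and 171 blood cells, and 24, 14 and 11 neural cells (glia). Another 318, 134 and 96 cells fell in no class. Markers that had not been used for the gating were highest in their own class in 15 of 15 pairs of class and library, by at least 5.36 times. The libraries held 12287823, 4465929 and 1712728 UMIs, with medians of 2589, 1495 and 1434 UMIs per cell, and they shared from 1 to 5 cell barcodes. The 2-week library was mostly ECs (78.1% of cells), and 40.6% of its 96 FBs had more than 10% mitochondrial UMIs against 3.28% of the healthy FBs. With such cells removed the ratio of 2 to 0 weeks of *Sdc3* in FBs was 5.48, against 6.55 with them. Such cells were 2.55%, 13.9% and 19.9% of blood cells and 30.2%, 52.6% and 38.2% of mural cells at 0, 2 and 12 weeks.

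Syndecans are transmembrane proteoglycans that carry heparan sulfate chains on their extracellular part and bind growth factors and matrix proteins at the cell surface, and their short cytoplasmic tails bind PDZ proteins such as syntenin. Pleiotrophin and midkine are secreted cytokines that bind these chains, and syndecan-3, known first from neural tissue as N-syndecan, is a receptor for pleiotrophin. Syndecan-1 is known best from epithelium and plasma cells, syndecan-2 from fibroblasts and other mesenchymal cells, and syndecan-4 from focal adhesions of many cell types.

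*Ptn* lies at chr6:36714929-36810220 (minus strand), *Mdk* at chr2:91929805-91932297 (minus), *Sdc1* at chr12:8771323-8793715 (plus), *Sdc2* at chr15:32920723-33034935 (plus), *Sdc3* at chr4:130792537-130826319 (plus) and *Sdc4* at chr2:164424247-164443887 (minus) in the GENCODE annotation of GRCm38. *Sdc3* is overlapped by 2 annotated genes on the opposite strand, Gm12970 and Gm26716, and the other 5 genes by none. Whether the counting used strand was not given in the sources used here. The 250 bases before the RefSeq start (GRCm38.p6) are shown for *Sdc3*, the syndecan whose 2-week level chose the members, and for its paralogs *Sdc1* and *Sdc4*, each 5′ to 3′ on the gene's strand with matches to the GC box GGGCGG on either strand in capitals.
Sdc3, chr4:130792287-130792536: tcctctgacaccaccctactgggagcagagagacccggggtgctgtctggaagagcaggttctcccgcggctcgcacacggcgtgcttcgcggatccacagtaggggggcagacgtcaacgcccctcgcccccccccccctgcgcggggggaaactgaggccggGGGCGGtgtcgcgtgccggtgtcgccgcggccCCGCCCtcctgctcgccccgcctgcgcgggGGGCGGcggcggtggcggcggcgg
Sdc1, chr12:8771146-8771395: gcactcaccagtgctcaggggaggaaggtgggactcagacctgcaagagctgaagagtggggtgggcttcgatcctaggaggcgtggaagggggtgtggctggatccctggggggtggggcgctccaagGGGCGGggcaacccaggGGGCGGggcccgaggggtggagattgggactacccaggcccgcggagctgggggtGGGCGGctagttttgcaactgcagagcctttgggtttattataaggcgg
Sdc4, chr2:164443189-164443438: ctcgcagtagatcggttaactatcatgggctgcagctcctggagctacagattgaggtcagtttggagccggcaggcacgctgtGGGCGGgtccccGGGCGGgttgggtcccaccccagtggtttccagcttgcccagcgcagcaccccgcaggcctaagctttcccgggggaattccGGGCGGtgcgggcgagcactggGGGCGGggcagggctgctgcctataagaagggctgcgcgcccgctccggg
The *Sdc3* window held 3 GC boxes, that of *Sdc1* 3 and that of *Sdc4* 4, and 32.7% of 32851 mouse promoter windows of this length held at least 1. All 3 were rich in G and C, at 76.4% in *Sdc3*, 66% in *Sdc1* and 68% in *Sdc4*, above 97.0%, 84.5% and 87.8% of all promoter windows, and *Sdc3* had 32 CpG dinucleotides against 10 in *Sdc1* and 19 in *Sdc4*. The *Ptn* window had 52% G and C and no GC box. The letters CCAAT, held by 33.8% of windows, were found once each in the *Ptn* and *Sdc1* windows and not in those of *Sdc3* and *Sdc4*. The E-box CACGTG, held by 6.02% of windows, and TATAAA, held by 12.4%, were in none of these 4 windows. The RefSeq start differs from the end of the GENCODE span for *Ptn*, *Sdc1* and *Sdc4*. The *Sdc4* window lies wholly inside the span given above, and the *Ptn* and *Sdc1* windows overlap theirs. These letter matches describe the windows and are not known binding sites.

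*Sdc3*, by whose 2-week ratio the members were chosen, was high at 2 weeks in ECs, FBs and blood cells. In ECs its level was 54.0 CPM (UMIs of the gene per 1000000 UMIs, summed over the cells of the class) at 0 weeks, 184 at 2 weeks and 90.04 at 12 weeks, from 172, 614 and 42 UMIs. In FBs it was 66.02, 432 and 130.5 CPM from 265, 113 and 81 UMIs. In blood cells it was 57.3, 219.7 and 70.4 CPM from 155, 89 and 26 UMIs. In these 3 classes the 2-week library was the highest and its 95% intervals, which cover counting error only, did not overlap those of the other libraries.

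The ratio of 2 to 0 weeks for *Sdc3* was 3.40 (95% interval 2.86 to 4.05) in ECs, 6.55 (5.20 to 8.19) in FBs and 3.83 (2.92 to 5.00) in blood cells. The ratio of 12 to 2 weeks was 0.490 (0.350 to 0.671), 0.302 (0.224 to 0.405) and 0.320 (0.199 to 0.501). At 12 weeks *Sdc3* was above the healthy level in FBs (1.98, 1.52 to 2.54), and in blood cells the interval included 1 (1.23, 0.778 to 1.87). In ECs the 12-week ratio was 1.67 (1.16 to 2.35), but 1.18 with cells thinned to 1000 UMIs. It was 2.00 (1.33 to 2.94) in ECs of no finer list and 0.970 (0.246 to 2.80) in arterial ECs, and the 10 venous ECs had 0 UMIs, where 3 counts would have been 103.4 CPM. In ECs the 5 erythroid markers, each seen in every library, summed to 100.2, 315 and 7249 CPM and the 9 blood gate markers to 52.5, 19.1 and 111 CPM (8 seen at 2 and at 12 weeks). With haemoglobin, mitochondrial and ribosomal genes left out of the totals the 12-week ratio in ECs was 1.64, and the part of blood cell RNA was not tested. Within FBs the 12-week ratio was 1.36 (0.979 to 1.87) in the activated group, 92 of the 186 FBs, and 3.19 (2.02 to 4.87) in the others. The activated group is named after its marker list (*Postn*, *Cilp*, *Thbs4*, *Comp* and *Meox1*), of which at least 3 UMIs were needed. Mural cells had 15, 2 and 2 UMIs and levels of 13.6, 11.4 and 22.6 CPM, and neural cells 2, 4 and 0 UMIs, where 3 counts at 12 weeks would have been 185 CPM. The mural ratio of 2 to 0 weeks was 0.836 (0.0928 to 3.60), an interval that included 1 and the EC value but lay below the values of blood cells and FBs. In neural cells it was 3.54 (0.507 to 39.1), and a difference was not detectable at this depth.

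**Figure D1:**
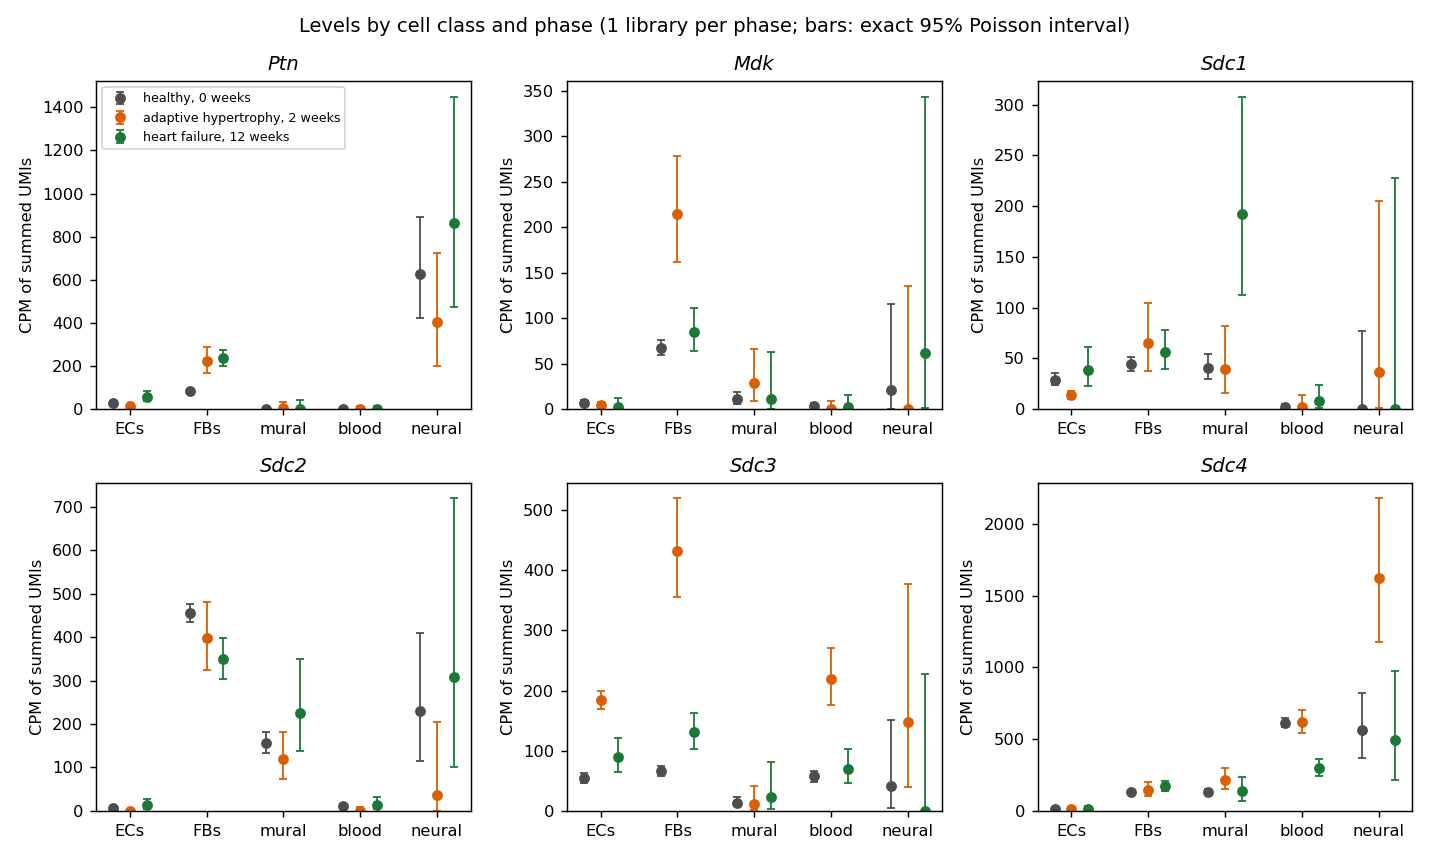
Level of each gene (y axis, CPM of summed UMIs) in the 5 cell classes (x axis) at 0 (grey), 2 (orange) and 12 weeks (green), 1 library per phase, with exact 95% Poisson intervals. The orange points of *Sdc3* stand above the others in ECs, FBs and blood cells, at 184, 432 and 219.7 CPM, and those of *Mdk* in FBs, at 214 CPM.

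The share of cells with a UMI of *Sdc3* was higher at 2 weeks too. It was 13.6%, 26.6% and 12.6% of ECs, 17.8%, 63.5% and 29.6% of FBs and 14.4%, 34.2% and 9.94% of blood cells at 0, 2 and 12 weeks, although the median cell was shallower at 2 than at 0 weeks. At 12 weeks the shares of ECs and blood cells were below and their CPM above those of 0 weeks, so no order of these libraries is read from the shares. With each cell thinned to 1000 UMIs, which left out 453 ECs, 26 FBs and 44 blood cells at 2 weeks and none at 0 weeks, the shares at 0 and 2 weeks were 6.54% and 15.8% of ECs, 5.90% and 32.9% of FBs and 5.96% and 18.9% of blood cells. In mural cells, which had the lowest level at 0 and 2 weeks, 4.72%, 3.51% and 5.88% had a UMI at median depths of 2667, 2255 and 1899.5 UMIs. No EC, FB or blood cell at 0 weeks had more than 5 UMIs of *Sdc3*, and 1 FB at 2 weeks had 18.

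Within ECs, FBs and blood cells the 2-week level was also above the healthy one in finer groups. In ECs that no arterial, venous, endocardial or lymphatic list took, *Sdc3* was at 56.6, 189 and 113 CPM (2 to 0 weeks 3.33, 2.72 to 4.11), and in arterial ECs at 50.4, 194 and 48.9 CPM (3.85, 2.52 to 6.12). Venous ECs had 40.1 and 99.9 CPM at 0 and 2 weeks (2.49, 1.11 to 6.11). FBs with UMIs of activation markers such as *Postn* had 88.9, 441 and 121 CPM (4.96, 3.82 to 6.41) and the other FBs 47.8, 379.6 and 152 CPM (7.94, 4.20 to 13.9). Macrophages had 61.9, 299 and 187 CPM (4.83, 3.55 to 6.50), and their ratio of 12 to 0 weeks was 3.02 (1.79 to 4.84), above that of all blood cells. B cells, which were 31, 0 and 58 of the blood cells, had 2 UMIs of *Sdc3* in all. Smooth muscle cells, of the mural class, had 8 UMIs (10.1 CPM) in 231 cells at 0 weeks and 0 UMIs in 40 cells at 2 weeks, where 3 counts would have been 21.8 CPM, with an upper limit of the ratio of 3.37.

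**Figure D2:**
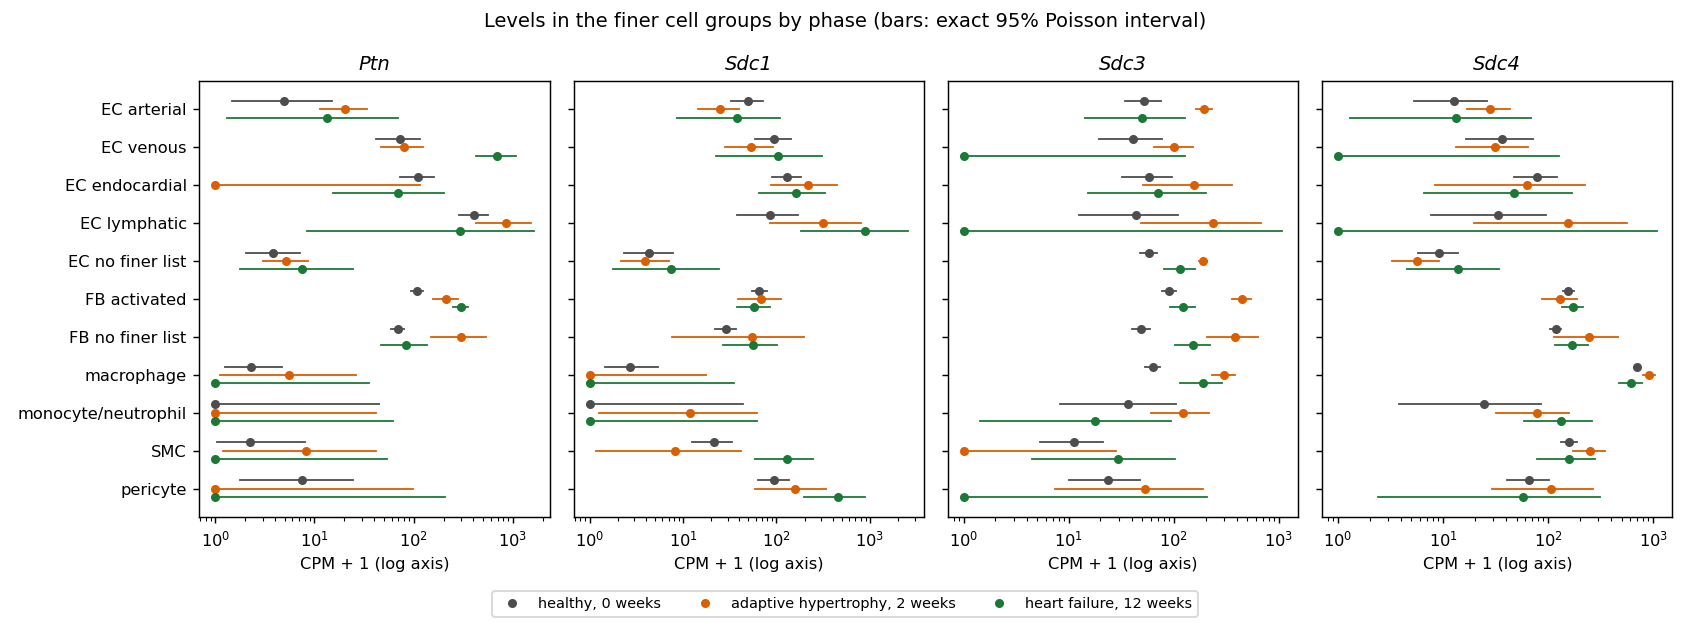
Levels of *Ptn*, *Sdc1*, *Sdc3* and *Sdc4* (x axis, CPM + 1, log axis) in the finer groups (y axis) at 0 (grey), 2 (orange) and 12 weeks (green), with exact 95% Poisson intervals. *Sdc3* at 2 weeks lies right of 0 weeks in the EC, FB and macrophage groups, *Ptn* and *Sdc1* are low in ECs of no finer list, and *Sdc4* is highest in macrophages.

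To show how far other genes behaved in this way, all genes with at least 20 UMIs over the phases compared in each of ECs, FBs and blood cells were ranked by the smallest of their 3 ratios of 2 to 0 weeks. At least 2-fold higher in all 3 classes were 41 of 6970 genes (0.588%), and *Sdc3* was at rank 12. The 11 genes before it were 8 with gene-model or ribosomal pseudogene names, and the clock genes *Nr1d1*, *Nr1d2* and *Dbp*, whose smallest ratios were 13.3, 7.22 and 3.53. *Per1*, another clock gene, followed at 2.83. *Nr1d1* and *Nr1d2* encode nuclear receptors that repress transcription in the circadian clock, *Dbp* a transcription factor driven by it and *Per1* a clock repressor, and these 4 genes were high in the same library as *Sdc3*. They were chosen after their values were seen, the time of day at which the hearts were taken was not given in the sources used here, and its part in the *Sdc3* level was not tested.

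Among the 10 genes with the largest smallest ratio over at least 4 classes, of 5339 genes measured in that many, were *Nr1d2* (7.22), *Dbp* (3.53), *Wdr89* (2.58) and 7 with gene-model or ribosomal pseudogene names, from *Rps18-ps3* (4.71) to *Gm6133* (2.60). *Sdc3* could not be among them, since it had at least 20 UMIs in 3 classes only. Of the 6 members *Ptn*, *Mdk* and *Sdc1* had too few UMIs in blood cells to be ranked, and the 2-week ratio of *Sdc3* is what the members were chosen by, so nothing is read from its rank.

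**Figure D3:**
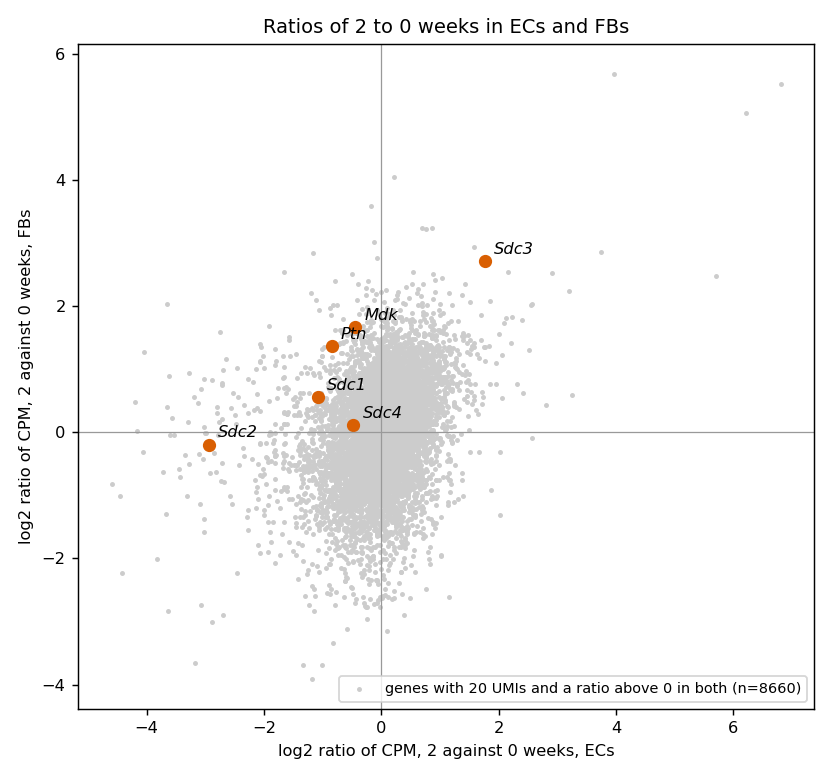
Log2 ratio of CPM of 2 to 0 weeks in ECs (x axis) and FBs (y axis) for 8660 genes (grey) with at least 20 UMIs and a ratio above 0 in both classes, with the 6 members in orange. *Sdc3* lies at the upper right (1.76 in ECs, 2.71 in FBs), and *Ptn* and *Mdk* lie at the upper left, high in FBs and below 0 in ECs.

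Over the 30 pairs of member and class, 20 had at least 20 UMIs in each comparison with 0 weeks. At 2 weeks 6 of the 20 were at least 2-fold higher and 3 at least 2-fold lower, and at 12 weeks 3 were higher and 2 lower. In ECs at 2 weeks 1 of 6 members was at least 2-fold higher and 2 were lower, where 4.16% and 6.24% of all genes were. In FBs 3 of 6 were higher and 0 lower, where 10% and 14.2% were. In mural cells 0 of 3 passed either limit (5.77% and 12.8% of genes), in blood cells 1 of 3 each way (11.1% and 13.8%), and in neural cells 1 of 2 was higher and 0 lower (10.8% and 6.43%). The lower one in blood cells was *Sdc2*, with 0 UMIs at 2 weeks, where 3 counts would give a ratio of 0.715. The higher members at 2 weeks include *Sdc3* in 3 classes, which was chosen for this, and nothing is read from that part of the count.

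**Figure D4:**
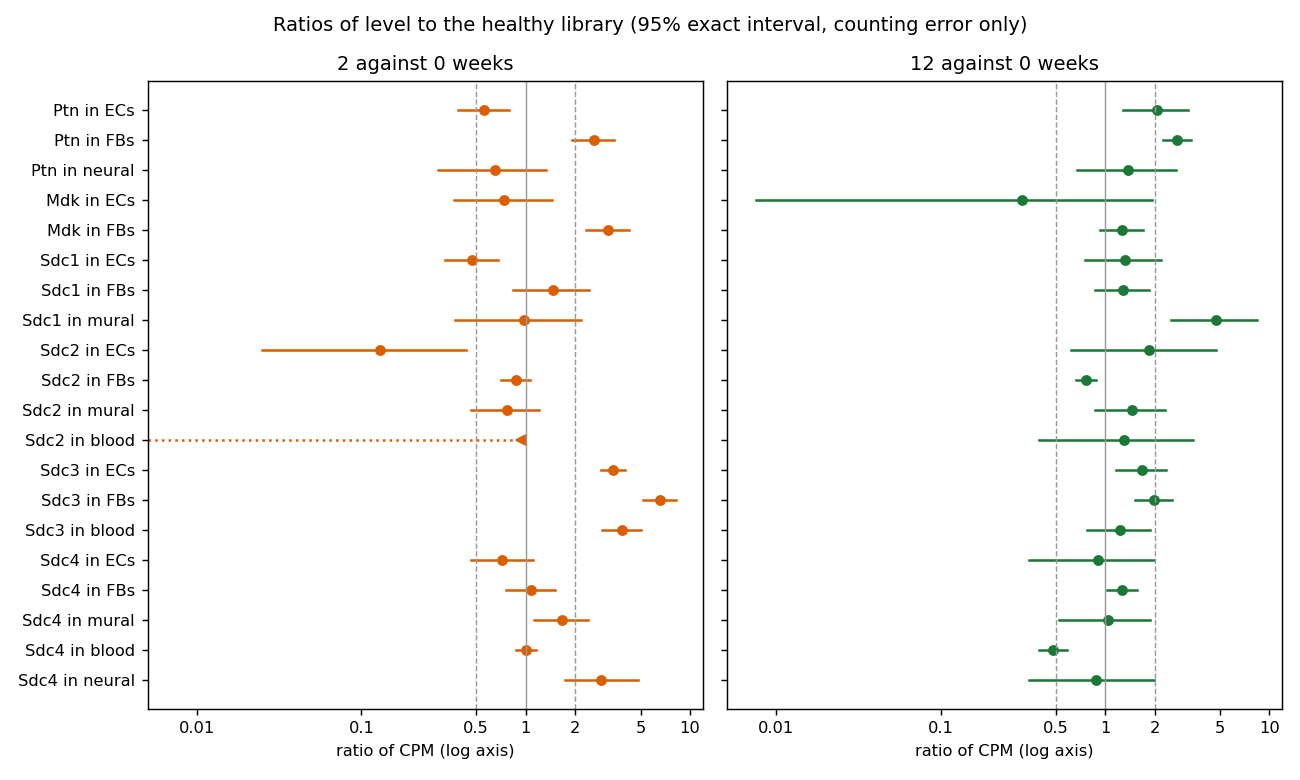
Ratios of CPM of 2 weeks (left) and 12 weeks (right) to 0 weeks (x axis, log axis) with 95% exact intervals for the 20 pairs of member and class with at least 20 UMIs (y axis); dashed lines mark 2-fold, and the dotted line ends at the upper limit where no UMI was counted at 2 weeks. At 2 weeks the 3 rows of *Sdc3*, *Ptn* and *Mdk* in FBs and *Sdc4* in neural cells lie right of 2-fold, and at 12 weeks *Sdc1* in mural cells lies farthest right at 4.71.

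*Ptn*, the ligand of syndecan-3, was highest in neural cells and then in FBs. Neural cells had 625, 405 and 864 CPM at 0, 2 and 12 weeks from 30, 11 and 14 UMIs, FBs 85.7, 222 and 235 CPM from 344, 58 and 146 UMIs, and ECs 28.0, 15.5 and 57.9 CPM from 89, 52 and 27 UMIs. Mural and blood cells had at most 3 UMIs in any library. A UMI of *Ptn* was seen in 10.8%, 13.5% and 17.7% of FBs and in 0.319%, 0.535% and 0.585% of blood cells, at the median depths 2978, 1646 and 2518 UMIs and 2610, 1575 and 1568 UMIs. At 0 weeks the order of neural cells, FBs and ECs was clear of counting error, with ratios between neighbours of 7.29 (4.85 to 10.6) and 3.06 (2.42 to 3.91), and at 2 weeks neural cells and FBs were not told apart (1.83, 0.865 to 3.52).

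In FBs *Ptn* was higher than in the healthy library at 2 weeks (ratio 2.59, 1.92 to 3.43) and at 12 weeks (2.74, 2.25 to 3.34), and the TAC libraries did not differ beyond counting error (1.060, 0.777 to 1.46). In ECs it was lower at 2 weeks (0.556, 0.387 to 0.792), but with cells thinned to 1000 UMIs the ratio was 0.897. The 12-week value in ECs (2.07, 1.29 to 3.22) rested on 1 cell with 19 of the 27 UMIs, and without the top cell of each library the ratio was 0.798. The neural ratios were 0.649 (0.293 to 1.33) and 1.38 (0.677 to 2.69).

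*Ptn* UMIs lay in few cells. FBs with at least 5 UMIs of *Ptn* numbered 20 at 0 weeks, 5 at 2 weeks and 9 at 12 weeks, and held 42.7%, 72.4% and 76.7% of the *Ptn* UMIs of FBs. The intervals treat UMIs as independent, so those of *Ptn* are too narrow for UMIs that lie in so few cells. FBs with activation markers had 108, 209 and 299.6 CPM and the other FBs 67.9, 298 and 81.7 CPM. At 12 weeks the ratio to 0 weeks was 2.77 (2.20 to 3.48) in FBs with these markers, and the other FBs were near the healthy level (1.20, 0.657 to 2.05). The marker list also took 425 of the 1221 healthy FBs, so it does not mark TAC alone. Within ECs *Ptn* was highest in lymphatic ECs at 0 and 2 weeks (405, 852 and 291 CPM from 38, 11 and 1 UMIs) and in venous ECs at 12 weeks (71.3, 78.2 and 689 CPM from 16, 18 and 20 UMIs), where 1 cell held 19 of the 20 UMIs. Endocardial ECs had 27 UMIs at 0 weeks (109 CPM), 20 of them in 1 cell, 0 at 2 weeks, where 3 counts would have been 92.3 CPM, and 3 at 12 weeks. Set against the healthy library, the 2-week level was 2.10-fold (0.970 to 4.20) in lymphatic, 1.10-fold (0.528 to 2.30) in venous and 4.97-fold (1.13 to 45.4) in arterial ECs, the last from 13 UMIs in 1 cell. Of these 4 groups the endocardial ECs alone were thus lower at 2 weeks by value, with an upper limit of 1.12. ECs of no finer list, which were 772 of 1071 at 0 weeks, had 2.86 CPM. There were 28, 10 and 4 lymphatic ECs and 62, 14 and 17 endocardial ECs in the 3 libraries, and in ECs of no finer list the 2-week ratio was 1.46.

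*Mdk*, the paralog of *Ptn*, was a gene of FBs and was high there at 2 weeks alone. FBs had 67.3, 214 and 85.4 CPM from 270, 56 and 53 UMIs, the 2-week library being above both others. The ratio to 0 weeks was 3.18 (2.34 to 4.26) at 2 weeks and 1.27 (0.927 to 1.71) at 12 weeks, and that of 12 to 2 weeks 0.399 (0.269 to 0.591). FBs with activation markers were at 214 CPM at 2 weeks from 48 UMIs in 71 cells (2.71, 1.91 to 3.79), and those without at 217 CPM from 8 UMIs in 25 cells (3.73, 1.58 to 7.58). ECs had 6.91, 5.08 and 2.14 CPM, mural cells 10.9, 28.4 and 11.3 CPM from 12, 5 and 1 UMIs, and blood cells at most 3.33 CPM. Neural cells had 1, 0 and 1 UMIs (20.8, 0 and 61.7 CPM), where 3 counts at 2 weeks would have been 111 CPM. FBs and neural cells were not told apart at 0 weeks (3.23, 0.575 to 128) and 12 weeks (1.38, 0.238 to 55.7). FBs held 80.6%, 70.9% and 88.3% of all *Mdk* UMIs at 0, 2 and 12 weeks while they held 32.7%, 5.86% and 36.3% of all UMIs.

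Both ligands were thus high in FBs at 2 weeks, and at 12 weeks *Ptn* was still high and *Mdk* was near the healthy level. A list of 6 mesothelial markers stood at 23.2, 126 and 58.0 CPM in FBs with each of the 6 seen in every library. Without the 15, 3 and 3 FBs that had a UMI of it the 2-week ratios were 2.58 for *Ptn*, 3.18 for *Mdk* and 6.59 for *Sdc3*. The 9 EC gate markers summed to 86.2, 91.8 and 126 CPM in FBs, and the 9 blood gate markers used to 54.3, 26.8 and 118 CPM. The FB gate markers summed to 10684, 19324 and 9151 CPM in FBs. The FB markers kept out of the gate summed to 47116, 24464 and 51815 CPM, so the 2-week FBs stood apart in both lists. The part of this in the 2-week ratios was not tested.

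Some FBs had UMIs of both ligands. With cells thinned to 1000 UMIs, 12 of 1221 FBs at 0 weeks had both, where the product of the 2 shares gives 4.66. At 2 weeks 5 of 70 had both, where it gives 1, and at 12 weeks 2 of 162, where it gives 1.29. With the 3 libraries pooled, FBs with at least 2 UMIs of *Mdk* had *Ptn* at 473 CPM against 73.8 CPM in FBs with none. The genes highest in FBs with at least 2 UMIs of *Ptn* against FBs with none, by the smallest ratio over the libraries, were *Wif1*, *Cyp2e1*, *Atp1b1*, *Ahsg* and *Apoe*. Pooled in the same way, *Wif1*, a secreted Wnt inhibitor, stood at 777 against 66.3 CPM and *Apoe*, a lipid carrier, at 10647 against 2297 CPM. By library, at 0, 2 and 12 weeks, the ratio was 11.5, 88.6 and 8.31 for *Wif1* and 4.55, 3.78 and 4.26 for *Apoe*. *Ahsg*, *Atp1b1* and *Wif1* also led the FBs with *Mdk*, and *Wif1*, *Lmcd1* and *Id4* those with *Sdc3*. *Wif1* was thus shared by the FBs with *Ptn*, with *Mdk* and with *Sdc3*. These cells were deeper than the rest (median 3881 against 2839 UMIs for *Ptn* at 0 weeks), the contrast was chosen after the data were seen, and the cells are from the same 3 libraries.

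*Sdc2* had the most syndecan UMIs in healthy FBs and was somewhat lower there at 12 weeks. FBs had 456, 398 and 349 CPM from 1829, 104 and 217 UMIs. The ratio to 0 weeks was 0.873 (0.709 to 1.06) at 2 weeks and 0.767 (0.663 to 0.883) at 12 weeks. Mural cells had 156, 119 and 226 CPM from 172, 21 and 20 UMIs (ratios 0.766, 0.462 to 1.21, and 1.45, 0.864 to 2.31), and neural cells 229, 36.9 and 308 CPM from 11, 1 and 5 UMIs. In pericytes alone *Sdc2* was at 126, 131 and 394 CPM from 39, 5 and 7 UMIs.

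In ECs *Sdc2* was at 6.91, 0.897 and 12.9 CPM from 22, 3 and 6 UMIs, and the 2-week level was lower than the healthy one (0.130, 0.0249 to 0.432). In blood cells 28, 0 and 5 UMIs were counted, and 3 UMIs at 2 weeks would have given 7.41 CPM against 10.4 CPM at 0 weeks. The FB gate markers, all 8 of which were seen in ECs, moved in the same way, from 177 to 45.2 CPM in ECs (165 at 12 weeks) and from 134 to 24.7 CPM in blood cells (162 at 12 weeks). No cell of these classes had more than 2 UMIs of *Sdc2*, and the part of FB RNA in these values was not tested.

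Over all cells *Sdc2* was at 177, 30.9 and 159 CPM, a ratio of 0.175 (0.146 to 0.208) at 2 weeks, although the ratio in FBs was 0.873. FBs held 84.1% of the *Sdc2* UMIs at 0 weeks, and they were 31.4% of the healthy and 4.30% of the 2-week cells. *Sdc4* over all cells was at 215, 102 and 151 CPM, with a ratio of 0.473 (0.428 to 0.523) at 2 weeks where none of the 5 classes had an interval below 1. Levels over all non-CMs and levels within a class thus differed between libraries in unlike ways.

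*Sdc4* had the most syndecan UMIs in blood cells and in neural cells. Blood cells had 616, 619.7 and 298 CPM from 1664, 251 and 110 UMIs, the 12-week library being low (ratio to 0 weeks 0.484, 0.395 to 0.587) and the 2-week library at the healthy level (1.01, 0.878 to 1.15). Without cells over 10% mitochondrial UMIs the 12-week ratio was 0.461. The macrophages in them had 696, 914 and 608 CPM, with ratios of 1.31 (1.13 to 1.52) and 0.873 (0.671 to 1.12). Monocytes or neutrophils had 2, 7 and 8 UMIs, with ratios of 3.26 (0.620 to 32.2) and 5.65 (1.13 to 54.6). Blood cells of no finer list had 128, 453 and 270 CPM, with ratios of 3.53 (2.11 to 6.00) and 2.10 (0.967 to 4.32). Macrophages were 826 of 940 blood cells at 0 weeks, 105 of 187 at 2 weeks and 49 of 171 at 12 weeks, and B cells had 87.2 and 176 CPM at 0 and 12 weeks. The part of this make-up in the 12-week value of all blood cells was not tested, and the macrophage value rests on 65 UMIs in 49 cells at 12 weeks.

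In the same contrast of cells, blood cells with at least 2 UMIs of *Sdc4* were led by *Cxcl1*, a neutrophil chemokine, at 368 against 115 CPM in those with none, and by *Bcl2a1b*, a survival gene, at 1256 against 508 CPM. At 0 weeks *Sdc4* was at 696 CPM in macrophages, 87.2 in B cells and 23.5 in monocytes or neutrophils. The part of these kinds of blood cell in the contrast was not tested. Neural cells had 562, 1622 and 493 CPM of *Sdc4* from 27, 44 and 8 UMIs in 24, 14 and 11 cells. Their ratio at 2 weeks was 2.88 (1.75 to 4.84), and 1 of the 14 cells held 13 of the 44 UMIs. With each cell given to the class of its largest marker list that ratio was 1.28. The neural markers kept out of the gate summed to 3417, 11867 and 2591 CPM in neural cells. The neural gate markers summed to 9437, 7223 and 12214 CPM, and the part of this in the *Sdc4* value was not tested. In mural cells *Sdc4* was at 130.6, 216 and 136 CPM (2 to 0 weeks 1.66, 1.13 to 2.38), and in FBs at 134, 145 and 171 CPM (12 to 0 weeks 1.27, 1.02 to 1.57). ECs had the lowest level, at 16.7, 11.96 and 15.01 CPM.

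*Sdc1* was at 44.1 CPM or less in each class at 0 weeks, and in ECs it lay in the groups other than the largest. ECs had 29.2, 13.8 and 38.6 CPM from 93, 46 and 18 UMIs, the 2-week library being the lowest (ratio 0.471, 0.323 to 0.677). At 0 weeks endocardial ECs had 129 CPM, venous ECs 93.6, lymphatic ECs 85.3 and arterial ECs 48.5, and ECs of no finer list 3.33 CPM. The last group held 7 of the 93 UMIs and was at 2.92 CPM at 2 weeks with a ratio of 0.877 (0.263 to 2.93), while arterial ECs were at 23.7 CPM at 2 weeks (0.489, 0.244 to 0.954) and venous ECs at 52.1 CPM (0.557, 0.2497 to 1.18). Endocardial and lymphatic ECs were higher at 2 weeks by value, at 215 CPM (1.67, 0.622 to 3.85) and 310 CPM (3.63, 0.801 to 13.6), and lymphatic ECs at 12 weeks had 874 CPM from 3 UMIs in 4 cells (10.2, 1.75 to 42.7). Endocardial ECs were 62 of 1071 ECs at 0 weeks and 14 of 1743 at 2 weeks. With the 3 libraries pooled, ECs with at least 2 UMIs of *Sdc1* were led by *Gkn3* (744 against 28.9 CPM), *Cytl1* (1967 against 129 CPM) and *Mgp* (10276 against 785 CPM). *Eln*, which encodes elastin, and *Edn1*, which encodes endothelin-1, followed. *Cytl1* is in the endocardial list, so its place in part restates that group. Such ECs numbered 23, 9 and 3 at 0, 2 and 12 weeks and were deeper than those with none (median 2634 against 2203 UMIs at 0 weeks).

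In mural cells *Sdc1* was at 40.8, 39.8 and 192 CPM from 45, 7 and 17 UMIs. The 12-week level was higher than the healthy one (4.71, 2.53 to 8.39), a ratio exceeded by 36 of 6200 genes, and it was seen in smooth muscle cells (20.2, 7.27 and 127 CPM) and in pericytes (94.0, 157 and 449.7 CPM). Only 34 mural cells were counted at 12 weeks and 1 of them held 5 of the 17 UMIs, and the ratio was 8.83 with cells thinned, 10.5 with a gate at 90% and 4.98 without cells over 10% mitochondrial UMIs. In mural cells the EC gate markers summed to 1288, 1212 and 577 CPM and the FB gate markers to 340.1, 296 and 351 CPM. The cardiomyocyte markers summed to 143, 159 and 464 CPM with 5 of 7 seen at 12 weeks (*Myh6* and *Tnni3* at 0), the blood gate markers to 71.6, 34.1 and 158 CPM and the FB markers kept out of the gate to 1351, 1229 and 1866 CPM, so these lists were higher in the 12-week library along with *Sdc1*. Without cells that had at least 3 of the cardiomyocyte markers the ratio was 3.97, and the part of the other lists was not tested. At 12 weeks 1 of 3 mural members was at least 2-fold higher and 0 lower, where 9.95% and 23.8% of genes were. In FBs at 12 weeks 1 of 6 was higher and 0 lower (6.91% and 6.99% of genes) and in ECs 1 of 6 each way (9% and 8.89%), the lower one being *Mdk*, with 1 UMI at 12 weeks and an interval that included 1. In blood cells 0 of 3 was higher and 1 lower (14.4% and 12.6%), and in neural cells 0 of 2 passed (7.35% and 10.7%). FBs had 44.1, 65.0 and 56.4 CPM of *Sdc1*, with intervals of both ratios that included 1.

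The make-up of the syndecan UMIs of a class gives the same counts in another form and is a description, since the *Sdc3* level chose the members. A 3′ kit counts a molecule once whatever its length, but how well each gene is captured is not known, so shares are compared between libraries and not between genes. In ECs *Sdc3* made up 50.6% of the syndecan UMIs at 0 weeks (172 of 340; exact binomial 95% interval 45.1 to 56.0), 87.3% at 2 weeks (84.7 to 89.7) and 57.5% at 12 weeks (45.4 to 69.0). In FBs the share of *Sdc3* was 9.43%, 41.5% and 18.5% and that of *Sdc2* 65.1%, 38.2% and 49.4%. In blood cells the share of *Sdc3* was 8.36%, 26.1% and 18.1% and that of *Sdc4* 89.8%, 73.6% and 76.4%. The smaller shares of *Sdc2* in FBs and *Sdc4* in blood cells at 2 weeks stand beside levels of these genes whose ratios were 0.873 and 1.01, with intervals that included 1. In mural cells the share of *Sdc3* was 3.99%, 2.94% and 3.92%.

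**Figure D5:**
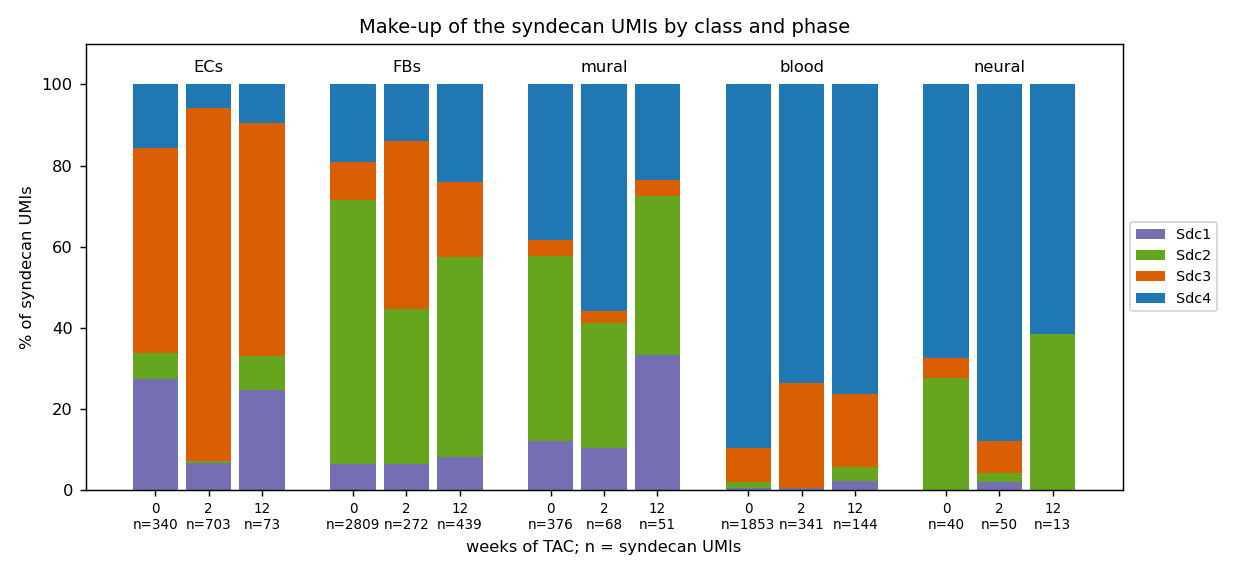
Share of each syndecan in the syndecan UMIs (y axis, %) of each class at 0, 2 and 12 weeks (x axis, with the number of syndecan UMIs). The orange part, *Sdc3*, is larger at 2 weeks than at 0 weeks in ECs, FBs and blood cells, and blood and neural cells are mostly *Sdc4*.

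The other genes of the pathway were given by 85 listed genes for receptors, heparan sulfate synthesis, editing and shedding, cytoplasmic partners, other heparan sulfate proteoglycans and heparin-binding ligands. At 2 weeks 1 of 58 measured genes in ECs (1.72%) was at least 2-fold higher and 3 (5.17%) were lower, where 4.16% and 6.24% of all genes were, with a median log2 ratio of -0.04 against 0.02 over all genes. In FBs 15 of 65 (23.1%) were higher and 3 (4.62%) lower, where 10% and 14.2% of all genes were (median 0.46 against -0.01). In blood cells 13 of 46 (28.3%) were higher and 4 (8.70%) lower, where 11.1% and 13.8% were (0.63 against -0.02). In mural cells 5 and 6 of 51 (9.80% and 11.8%) passed, where 5.77% and 12.8% of all genes did (-0.07 against -0.0033), and in neural cells 0 and 2 of 8, where 10.8% and 6.43% did. These shares describe the list and were not tested. FBs with activation markers were 425 of 1221 FBs at 0 weeks and 71 of 96 at 2 weeks, and the part of this in the 2-week FB values of the pathway was not tested.

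Among receptors, *Ptprb*, an endothelial receptor phosphatase, was at 30.4 and 72.5 CPM in FBs at 0 and 12 weeks (2.38, 1.66 to 3.38), where the EC gate markers were at 86.2 and 126 CPM, and in mural cells at 317 and 22.6 CPM (0.0714, 0.00862 to 0.260) where they were at 1288 and 577 CPM. *Ptprz1*, the best known phosphatase receptor of pleiotrophin, which was chosen after its values were seen, had 22 UMIs in the 24 healthy neural cells (458 CPM) and 4 in the 1221 FBs. Healthy neural cells thus had both *Ptn* and this receptor. *Notch2* in FBs was at 69.3 and 30.6 CPM at 0 and 2 weeks (0.442, 0.189 to 0.883), and the integrin chain *Itga6* in blood cells at 19.6 and 61.7 CPM (3.15, 1.87 to 5.16). In mural cells *Itga6* had 56 UMIs at 0 and 0 at 12 weeks, with an upper limit of the ratio of 0.849.

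Among the other heparan sulfate proteoglycans, *Hspg2*, which encodes perlecan of the basement membrane, was at 326 and 950 CPM in ECs at 0 and 2 weeks (2.91, 2.72 to 3.13) and at 105 and 233 CPM in mural cells (2.22, 1.51 to 3.19). In FBs 5 of 9 measured genes of this group were at least 2-fold higher at 2 weeks, where 10% of all genes were, and 0 were lower. With at least 100 UMIs per gene 2 of 5 were higher. This was the list with the largest share in FBs. Higher and lower were 1 and 1 of 11 receptors, 3 and 0 of 14 synthesis genes and 1 and 0 of 8 editing and shedding genes. Among cytoplasmic partners 2 and 0 of 13 were, and among ligands 3 and 2 of 10. The higher proteoglycans included *Gpc1*, a glypican, at 13.5 and 76.5 CPM (5.69, 3.22 to 9.65) and *Cd44*, the hyaluronan receptor, at 27.4 and 91.8 CPM (3.35, 2.06 to 5.25). At 12 weeks *Gpc1* was still at 27.4 CPM in FBs (2.04, 1.11 to 3.57). *Cd44* in blood cells was at 221 and 765 CPM at 0 and 2 weeks (3.46, 3.01 to 3.98). In mural cells the EC gate markers were at 1288 and 1212 CPM and the EC markers kept out of the gate at 1122 and 1445 CPM at 0 and 2 weeks, so UMIs of EC markers were present in the class, and the part of EC RNA in the mural *Hspg2* value was not tested.

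Among heparin-binding ligands, *Fn1*, which encodes fibronectin, was at 154, 543 and 66.03 CPM in FBs, with ratios to 0 weeks of 3.52 (2.91 to 4.23) and 0.428 (0.304 to 0.588), and at 32.6, 395 and 141 CPM in blood cells, with ratios of 12.1 (9.30 to 15.9) and 4.33 (3.01 to 6.16). *Thbs1*, which encodes thrombospondin-1, was at 32.6, 711 and 133 CPM in blood cells (21.8, 17.1 to 28.1 at 2 weeks). The class had another make-up in each library, with 826, 105 and 49 macrophages and 29, 37 and 21 monocytes or neutrophils among 940, 187 and 171 blood cells, and the part of this in the values of *Fn1*, *Thbs1*, *Hbegf*, *Itga6* and *Cd44* was not tested. *Hbegf*, a growth factor ligand that binds heparin, was lower in blood cells at both times (0.164, 0.0653 to 0.342, and 0.205, 0.0879 to 0.410). *Lpl*, lipoprotein lipase, was lower in FBs at 2 weeks (0.367, 0.258 to 0.508) and *Tnc*, tenascin-C, at 12 weeks (0.277, 0.0558 to 0.844, with 3 UMIs). *Vtn*, vitronectin, was at 124, 51.2 and 396 CPM in mural cells (0.412, 0.185 to 0.805, and 3.18, 2.13 to 4.65). Pericytes were 86 of 318 mural cells at 0 weeks, 17 of 57 at 2 weeks and 16 of 34 at 12 weeks. *Vtn* is itself in the pericyte list, so these numbers depend in part on its level. The part of this in the mural values was not tested.

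Among enzymes and partners, *Tiam1*, a Rac activator that binds syndecan tails, was at 23.9 and 84.1 CPM in FBs at 0 and 2 weeks (3.52, 2.11 to 5.64). The heparan sulfate enzyme *Hs2st1* was lower in blood cells at 2 weeks (0.290, 0.0584 to 0.884) and 12 weeks (0.318, 0.0641 to 0.970). *Ext1* was higher there at 2 weeks (log2 ratio 1.21) and lower at 12 weeks (0.188, 0.0223 to 0.701). Of 10 measured synthesis genes in blood cells 4 were at least 2-fold higher and 2 lower at 2 weeks (11.1% and 13.8% of all genes). At 12 weeks 2 were higher and 3 lower (14.4% and 12.6%). At 12 weeks the endosulfatase *Sulf1* was higher in ECs (2.51, 1.52 to 4.02), the protease *Mmp14* (0.313, 0.0996 to 0.753) and *Gpc4* (0.325, 0.0653 to 0.994) were lower there, and *Cd44* was at 30.8 and 15.01 CPM at 0 and 12 weeks (0.487, 0.191 to 1.04). Blood cells at 12 weeks had more *Mmp9* (8.11, 5.07 to 13.01) and *Ezr* (4.44, 3.43 to 5.72) and less of the sheddase gene *Adam17* (0.260, 0.0830 to 0.620), in a class with 49 macrophages and 58 B cells against 826 and 31 at 0 weeks. The part of these numbers was not tested. *Agrn* and *Adam17* had 1 UMI each in mural cells at 12 weeks. At 12 weeks 4 and 5 of 54 pathway genes in ECs were higher and lower (7.41% and 9.26%, against 9% and 8.89% of all genes), and 2 and 3 of 65 in FBs (3.08% and 4.62%, against 6.91% and 6.99%). In mural cells 4 and 11 of 48 were (8.33% and 22.9%, against 9.95% and 23.8%), in blood cells 10 and 8 of 45 (22.2% and 17.8%, against 14.4% and 12.6%), and in neural cells 0 and 2 of 7 (against 7.35% and 10.7%). In ECs and mural cells these shares were near those of all genes.

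The genes most like *Sdc3* over the 15 profiles of class and library, by Pearson's correlation of log2(CPM + 1) among 7893 genes with at least 200 UMIs, were *Rab11fip5* (0.940), *Ruvbl2* (0.913), *Ostm1* (0.906), *Ccpg1* (0.906) and *1810030O07Rik* (0.904). Those most like *Ptn* were *Tex264* (0.949), *Dpysl2* (0.946), *Cd9* (0.943), *Cxxc5* (0.941) and *Tm7sf3* (0.939). Among the members the highest correlation was that of *Mdk* and *Sdc2* (0.796), while *Ptn* and *Sdc3* were at -0.0363. By value *Mdk* and *Sdc2* were highest in FBs in each library. At 12 weeks the intervals of FBs against neural cells included 1 for both genes. The profiles of a library share its depth and its free RNA, and profiles with few cells, such as the neural ones, weigh as much as the others.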

How the data were processed

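Non-CMs of 3 libraries, 1 per phase, were measured by droplet-based scRNA-seq. The authors deposited raw counts of UMIs per gene and cell, without normalization. The submitters' processing notes name Cell Ranger 2.0.0 and mm10. Weeks were taken from the paper's account of the phases.

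Cells with at least 200 genes were kept. A cell entered a class when that class's gate list had at least 3 UMIs and at least 75% of all gate UMIs. Of the 10 blood markers 9 had a unique symbol and were used. Finer groups needed 3 UMIs of their list and went to the list with the most UMIs. No doublet caller was run. UMIs were summed per class and library and divided by all UMIs of the class, and ratios have exact conditional binomial, levels exact Poisson and shares Clopper-Pearson 95% intervals. These cover counting error only, and cells are not replicates, so no p-values were computed. Beside a count of 0 the level or ratio of 3 counts, or an upper limit, is given. Shares were also computed at 1000 UMIs per cell.

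The members and gene lists were chosen with earlier results of these data known. Named genes were the members, up to 4 pathway genes each way per class and comparison past 2-fold with at least 50 UMIs, the 5 genes most like *Sdc3* and *Ptn*, and the 10 with the largest smallest ratio of 2 to 0 weeks over at least 4 classes. The clock genes, *Ptprz1* and the genes leading cells with a member, ranked by their smallest ratio over the libraries, were outside this rule and chosen after their values were seen. CPM in the contrasts of cells with and without a member were pooled over the 3 libraries. Promoter sequences are from RefSeq, in which 4 of the 6 members matched, *Mdk* and *Sdc2* not. The ratio and interval code was tested on simulated data. Python 3.11.15, numpy 2.4.6, scipy 1.17.1, pandas 2.3.3 and matplotlib 3.10.9 were used.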

Additional observations from a re-analysis of the deposited data

Results flagged for a closer look

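In the adaptive hypertrophy library *Ptn* stood on opposite sides of the healthy level in 2 classes, with a ratio of 2.59 in FBs and 0.556 in ECs, and the intervals of both excluded 1. At 12 weeks *Sdc4* did the same, with ratios of 1.27 in FBs and 0.484 in blood cells. The difference between the classes was not tested in either case, since there was 1 library per phase. In ECs the 2-week ratio of *Ptn* was 0.897 with cells thinned to 1000 UMIs and 1.46 in those of no finer list, and in macrophages the 12-week ratio of *Sdc4* was 0.873.

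Cells that no class took, which entered the sums over all cells but none of the comparisons within a class, had signals of every member over the 3 libraries: 74.95 CPM of *Ptn*, 15.2 of *Mdk*, 50.6 of *Sdc1*, 85.3 of *Sdc2*, 70.7 of *Sdc3* and 169 of *Sdc4*. *Sdc3* was at 45.3, 167 and 119 CPM in them at 0, 2 and 12 weeks.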

How the results depend on the processing

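No paired analysis was possible because each phase was 1 library and no test was made. The 19 ratios whose interval excluded 1 were recomputed under 9 alternatives and 6 added after the data were seen, 219 values in all, of which 196 stayed within the interval of the value reported, 20 moved out of it and 3 changed side of 1. Those 3 were of *Ptn* in ECs, at 1.46 at 2 weeks in ECs of no finer list and, at 12 weeks, at 0.915 as a mean over cells of counts per 10000 and 0.798 without the cell with the most UMIs of the gene. With cells thinned to 1000 UMIs, *Ptn* was at 0.897 in ECs at 2 weeks and 2.12 in FBs at 12 weeks, *Sdc1* at 8.83 in mural cells at 12 weeks, *Sdc2* at 0 in ECs at 2 weeks (0 of 1290 cells, upper limit 0.286%), *Sdc3* at 2.59 in ECs at 2 weeks and 3.72 in FBs at 12 weeks, and *Sdc4* at 0.365 in blood cells at 12 weeks. As a mean over cells, *Ptn* in FBs at 12 weeks was at 1.97 and *Sdc3* in FBs at 8.85 and 2.86 at 2 and 12 weeks. The gate at 90% gave 10.5 for *Sdc1* in mural cells at 12 weeks, and a gate with no dominance limit 1.28 for *Sdc4* in neural cells at 2 weeks. In ECs of no finer list *Sdc1* was at 0.877 at 2 weeks. In FBs without the activated group *Ptn* was at 4.39 and 1.20 at 2 and 12 weeks and *Sdc3* at 3.19 at 12 weeks, and in the activated group alone *Sdc3* was at 4.96 and 1.36. In macrophages *Sdc4* was at 0.873 at 12 weeks, and without the top cell in blood cells at 0.395. *Mdk* in ECs at 12 weeks, whose interval included 1, was at 1.39 when thinned and 1.36 in ECs of no finer list. The cause of these shifts was not tested.

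The 2-week ratio of *Sdc3* was from 2.59 to 3.67 in ECs, from 4.96 to 8.85 in FBs and from 3.58 to 4.83 in blood cells over the alternatives run. With at least 100 UMIs per gene 20 of the 21 shares of genes past 2-fold fell outside their 95% binomial interval. Of 20 pathway counts 16 fell by over 1.5 times or to 0. Fewer genes pass the stricter limit, so these counts could only stay or fall, and no pathway gene passed it in neural cells. At 2 weeks 8 and 2 of 46 pathway genes in FBs were then higher and lower (17.4% and 4.35%, against 4.94% and 8.35% of all genes). In blood cells 4 and 1 of 22 were (18.2% and 4.55%, against 6.81% and 7.58%). In ECs 1 and 0 of 38 were (against 2.57% and 3.29%), and in mural cells 1 and 1 of 18 (against 1.82% and 5.72%). The cause of the differences in shares was not tested. The data are limited by 1 library per phase, by 96 FBs, 57 mural and 14 neural cells at 2 weeks and 34 mural and 11 neural cells at 12 weeks, and by unknown numbers of hearts.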
